A study of Homo sapiens with 6 samples.

Results

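The genes described here are 10 genes of the cereblon ubiquitin ligase and its drug-dependent substrates, picked by gene symbol from the 58735 genes of an RNA-seq expression table. They comprise the substrate receptor CRBN, the adaptor DDB1, the scaffolds CUL4A and CUL4B, the RING subunit RBX1, and the neosubstrates IKZF1, IKZF3, ZFP91, CSNK1A1 and GSPT1. Every one of the 10 symbols was found once in the table. RNA was sequenced from MM.1S, an established human multiple myeloma cell line, in 3 control libraries transfected with a negative control siRNA (si-NC) and 3 PRMT1 KD libraries transfected with siRNA against PRMT1. The siRNA was used at 100 nM and the cells were collected 72 h after transfection. Which PRMT1 siRNA was used is not given in the sources used here, no cereblon-binding drug is named for either group, and both groups come from 1 cell line. PRMT1 is an arginine methyltransferase, and the libraries were made to look for the genes that change when it is depleted.

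Cereblon is the part of the ligase that recognises a protein to be destroyed. DDB1 holds cereblon on the CUL4 scaffold, and RBX1, at the other end of the scaffold, brings in the enzyme that carries ubiquitin. Thalidomide, lenalidomide and pomalidomide bind in a pocket of cereblon and create a surface to which proteins that are otherwise not clients stick. These proteins, the neosubstrates, are then ubiquitinated and degraded. In myeloma the loss of the lymphoid transcription factors IKZF1 and IKZF3 is central to the action of these drugs, which is why the supply of the ligase and of its neosubstrates is of interest in a myeloma cell.

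The zinc finger neosubstrates are recognised through a short hairpin of a Cys2His2 zinc finger that carries a glycine directly after its second cysteine. The coding stretches of such a finger are shown because they are the part of IKZF1, IKZF3 and ZFP91 by which the drug-bound ligase sees all 3 proteins. They were read from GENCODE release 29 transcripts on GRCh38, run 5′ to 3′ from the codon of the first cysteine to that of the last histidine, and have the glycine codon in capitals. The IKZF1 stretch is in exon 5 at chr7:50382557-50382619 on the plus strand. The IKZF3 stretch is in exon 5 at chr17:39791504-39791566 on the minus strand. The ZFP91 stretch is in exon 11 at chr11:58617197-58617259 on the plus strand.
IKZF1: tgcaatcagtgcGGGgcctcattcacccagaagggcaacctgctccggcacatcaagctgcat
IKZF3: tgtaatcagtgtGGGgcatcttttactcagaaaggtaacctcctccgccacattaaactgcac
ZFP91: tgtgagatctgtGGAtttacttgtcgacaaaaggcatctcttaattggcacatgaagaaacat
The glycine is codon 151 of the IKZF1 transcript, codon 152 of IKZF3 and codon 406 of ZFP91. The IKZF1 and IKZF3 fingers encode the same residue at 21 of 21 positions, although only 50 of their 63 bases are the same. The ZFP91 stretch, the 63-base finger of that gene most like the IKZF1 one, has the same residue as IKZF1 at 9 of 21 positions and the same base at 30 of 63. The IKZF1 and IKZF3 proteins thus present the same finger, while their mRNA levels in MM.1S cells were far apart. Levels are given in FPKM (fragments scaled by the length of the gene and the size of the library).

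The deposited FPKM values rested on 14439217 to 16465026 reads on genes per library, the lowest total being that of PRMT1 KD replicate 2. PRMT1 was 61.7, 62.8 and 58.9 FPKM in the control libraries and 13.3, 14.0 and 12.5 FPKM in the PRMT1 KD libraries, 21.7% of control by their means, in the direction of the labels. Of 10 plasma cell markers, 10 had a mean of at least 1 FPKM, and their summed level was 1407 to 1487 FPKM in control and 1394 to 1559 FPKM in PRMT1 KD. The B cell list had 1 of 4 genes at 1 FPKM (PAX5, with a mean of 1.07 FPKM) and MS4A1 listed at 0, and its summed level was 1.20 to 1.64 FPKM in control and 1.07 to 1.64 FPKM in PRMT1 KD. The monocyte, erythroid and stromal lists had 0 of 4, 0 of 3 and 0 of 3 genes at 1 FPKM. The T cell list had 2 of 5, with CD3E at a mean of 35.8 FPKM. Its summed level was 35.9 to 39.4 FPKM in control and 39.9 to 42.6 FPKM in PRMT1 KD, and its part in the results below was not tested. In a bulk sample fewer cells of a kind and less RNA per cell cannot be told apart, and since the labels do not say that the replicates came from separate cultures, p-values measure only the spread between these libraries.

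In control cells the members spanned a wide range of mRNA levels, and the receptor itself was near the bottom. GSPT1, a translation termination factor, was the most abundant at 38.7 ± 1.32 FPKM (SD, n = 3), followed by DDB1 at 32.3 ± 1.79 FPKM (SD, n = 3). RBX1 had 24.6 ± 0.682 FPKM and ZFP91 22.2 ± 0.245 FPKM (SD, n = 3). These 4 genes stood between the 84.6 and 92.1 percentile of all genes tested. CUL4A at 19.1 ± 0.446 FPKM and IKZF3 at 18.6 ± 0.793 FPKM (SD, n = 3) were next, and their ranges over the control libraries overlapped, so their order cannot be told. CSNK1A1 followed at 16.3 ± 0.517 FPKM, CUL4B at 8.38 ± 0.433 FPKM and CRBN at 4.18 ± 0.375 FPKM (SD, n = 3). IKZF1 was last at 0.511 ± 0.00976 FPKM (SD, n = 3). Apart from CUL4A and IKZF3, no neighbours in this order overlapped.

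**Figure D1:**
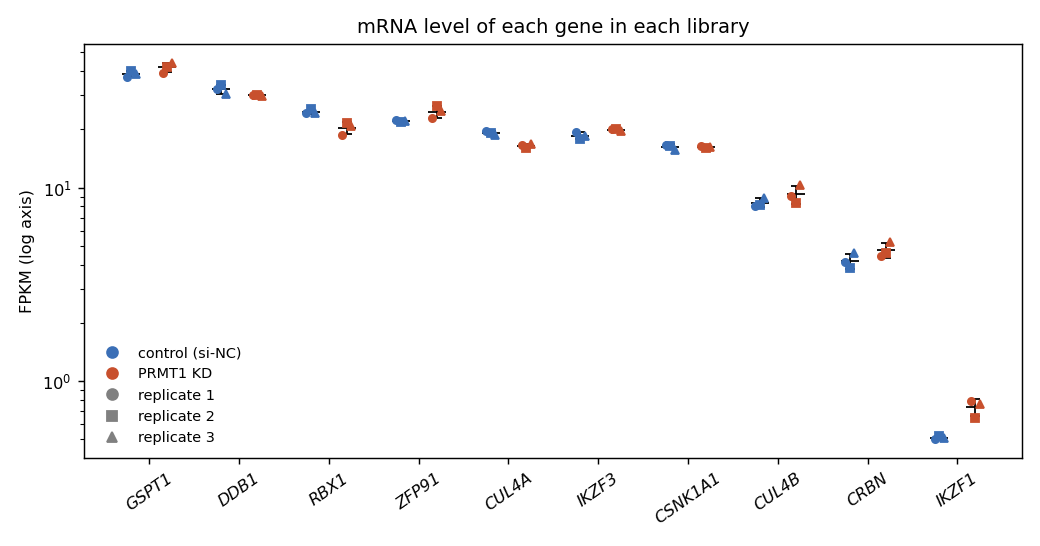
FPKM on a log axis for each gene in the 3 control libraries (blue) and the 3 PRMT1 KD libraries (orange), with marker shape for the replicate number, a horizontal bar for the mean and whiskers for 1 SD. GSPT1 stands highest with 37.5 to 40.1 FPKM in control, CRBN near the bottom with 3.84 to 4.58, and IKZF1 lowest with 0.503 to 0.522.

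Within the ligase, the adaptor DDB1 was 7.73-fold, RBX1 5.89-fold, CUL4A 4.57-fold and CUL4B 2.00-fold above CRBN in mean control FPKM. CRBN stood at the 38.1 percentile of the genes tested. These comparisons between genes depend on the length that each FPKM value was divided by. The deposited lengths cover all exons of a gene and were 3.63 times the longest coding transcript for CRBN, 3.10 times for DDB1 and 2.60 times for RBX1, against 1.02 times for IKZF3. Per longest coding transcript, DDB1 came first at 99.9 FPKM, RBX1 had 64.1, GSPT1 43.7, CUL4A 26.5, CRBN 15.2 and CUL4B 12.0 FPKM, and only IKZF1 kept its place, the last, at 0.887 FPKM. CRBN thus stood below DDB1, RBX1 and CUL4A on both scales, but below CUL4B only on the deposited one.

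No member was called changed after PRMT1 KD. Differences were tested with limma on log2(FPKM + 1) over the 13585 genes with a mean of at least 1 FPKM, and a gene was called at a Benjamini-Hochberg adjusted p under 0.05. Of the 10 members 9 entered this test, and 0 of 9 were called, beside 2.05% of all genes tested (0.986% lower and 1.07% higher). IKZF1 fell under the filter. At an unadjusted p under 0.05 the limma fit had 3 of the 9 members (RBX1, CUL4A and ZFP91), beside 19.5% of all genes tested. With voom, the limma method for reads, on the reads worked back from FPKM, 2 of the 9 members (RBX1 and CUL4A) were called, beside 6.82% of all genes tested. By library, 3 members had every PRMT1 KD value above every control value (IKZF1, IKZF3 and ZFP91), 3 had every one below (DDB1, CUL4A and RBX1) and 4 overlapped. Of the 9 members tested, 2 were separated with PRMT1 KD higher and 3 with it lower (55.6% together). Among all genes tested 25.9% were separated, 13.6% with PRMT1 KD higher and 12.3% with it lower. All log2 fold changes below are on the log2(FPKM + 1) scale, which understates the change of low genes.

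**Figure D2:**
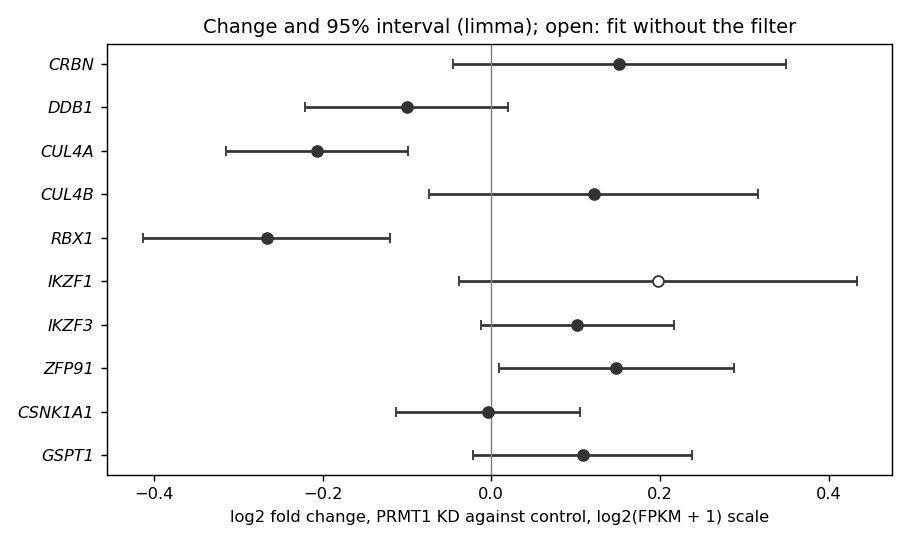
Log2 fold change of PRMT1 KD against control for each gene, with its 95% interval from limma as horizontal bars, 0 marking no difference. The intervals of CUL4A and RBX1 lie below 0 and that of ZFP91 above it, the other 7 include 0, and the open point (IKZF1) comes from the fit without the filter on low values.

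CRBN, the drug receptor, is listed under ENSG00000113851 at chr3:3144628-3179727 on the minus strand. Its level was 4.11, 3.84 and 4.58 FPKM in the control libraries and 4.45, 4.60 and 5.21 FPKM in the PRMT1 KD libraries. Control replicate 3 lay above PRMT1 KD replicate 1, so the groups overlapped, although PRMT1 KD averaged 114% of control. This gave a log2 fold change of 0.15 with a 95% interval of -0.046 to 0.35 (limma adjusted p = 0.370), and 0.096 without PRMT1 KD replicate 3. The values rested on 500 to 640 reads per library, and the spread within groups was 8.71% of the mean where counting alone gives 4.18%. TRNT1 overlaps CRBN on the opposite strand and had 461 to 562 reads per library, with a log2 change of -0.0014 (limma adjusted p = 0.995). What reads of TRNT1 contribute to CRBN was not tested. The genes whose profiles over the 6 libraries were most like that of CRBN were RELCH, EPSTI1 and ATL2, with root mean square differences of 0.0125, 0.0134 and 0.0152 between centred log2 values, against a median of 0.157 over 13584 genes. They were picked as the 3 closest of these genes, so lying under the median follows by construction.

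DDB1, the adaptor shared by all receptors of CUL4 ligases, had 32.3, 34.0 and 30.5 FPKM in control and 30.0, 30.2 and 29.9 FPKM in PRMT1 KD. The PRMT1 KD libraries were all below the control libraries, by a small margin from control replicate 3. The log2 fold change was -0.10 with a 95% interval of -0.22 to 0.020 (limma adjusted p = 0.336), and -0.062 without control replicate 2. With 6066 to 7656 reads per library this was the most deeply counted of the 10 genes. It lies at chr11:61299451-61342596 on the minus strand and overlaps TKFC on the opposite strand, which had 1601 to 1940 reads per library and a log2 change of -0.023 (limma adjusted p = 0.884).

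CUL4A and CUL4B are alternative scaffolds of the ligase. CUL4A (chr13:113208193-113267108, plus strand) had 19.6, 19.1 and 18.7 FPKM in control and 16.6, 16.0 and 16.7 FPKM in PRMT1 KD. The groups were well apart and PRMT1 KD averaged 86.0% of control. On the log2 scale this was -0.21 with a 95% interval of -0.31 to -0.099 (limma adjusted p = 0.0738). The voom test on reads gave an adjusted p of 0.0348, past the threshold, so the call for CUL4A depends on the test. PCID2, which overlaps CUL4A on the opposite strand with 1286 to 1692 reads per library, had a log2 change of -0.12 (limma adjusted p = 0.289). The strand setting of the counting is not given in the sources used here, and what reads of PCID2 contribute was not tested.

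CUL4B, the X-linked paralogue (chrX:120524609-120575794, minus strand), had 8.07, 8.18 and 8.87 FPKM in control and 9.02, 8.33 and 10.3 FPKM in PRMT1 KD. The groups overlapped through PRMT1 KD replicate 2. The log2 fold change was 0.12 with a 95% interval of -0.073 to 0.32 (limma adjusted p = 0.467). It was 0.045 without PRMT1 KD replicate 3 and 0.19 without PRMT1 KD replicate 2, so single libraries set its size. Within a library, the ratio of CUL4B to CUL4A does not depend on the scaling between libraries. It was 0.413, 0.429 and 0.475 in control and 0.544, 0.522 and 0.618 in PRMT1 KD. The groups did not overlap, and the log2 difference was 0.35 ± 0.095 (SE). By exact permutation (two-sided) p was 0.1, which is the floor for 3 libraries against 3, and 0.2 after Benjamini-Hochberg adjustment over the 4 ratios computed.

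RBX1, the RING subunit that recruits the ubiquitin-carrying enzyme, had the lowest fold change of the members. It is listed at chr22:40951347-40973309 on the plus strand. Its level was 24.2, 25.4 and 24.3 FPKM in control and 18.6, 21.5 and 20.8 FPKM in PRMT1 KD. The groups did not overlap and PRMT1 KD averaged 82.6% of control. Its log2 fold change was -0.27 with a 95% interval of -0.41 to -0.12 (limma adjusted p = 0.0847). The call was made by the voom test (adjusted p = 0.0280) and by limma over genes with a mean of at least 5 FPKM (adjusted p = 0.0467), a fit that called 6.13% of its 7710 genes. RBX1 is a short gene with 3092 bases in the deposited lengths, and when protein-coding genes were divided by length into 5 equal bins, the shortest (207 to 2884 bases) had a median log2 fold change of -0.048. The bin that holds RBX1 (2885 to 4296 bases) had a median of -0.0018, and the one that holds CUL4A (5907 to 8171 bases) a median of 0.042. The part of gene length in the values of RBX1 and CUL4A was not tested.

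The other ratios within libraries set the receptor against its adaptor and the RING subunit against its scaffolds. CRBN to DDB1 was 0.127, 0.113 and 0.150 in control and 0.149, 0.152 and 0.174 in PRMT1 KD, with overlap between the groups (log2 difference 0.29 ± 0.14 SE, exact permutation p = 0.2, adjusted 0.267). That difference was 0.19 without control replicate 2 and 0.40 without control replicate 3. RBX1 to the sum of CUL4A and CUL4B was 0.875, 0.932 and 0.882 in control and 0.729, 0.886 and 0.770 in PRMT1 KD. Here PRMT1 KD replicate 2 lay inside the control range (log2 difference -0.18 ± 0.089 SE, exact permutation p = 0.3, adjusted 0.3). This difference was -0.12 without PRMT1 KD replicate 1 and -0.26 without PRMT1 KD replicate 2.

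**Figure D3:**
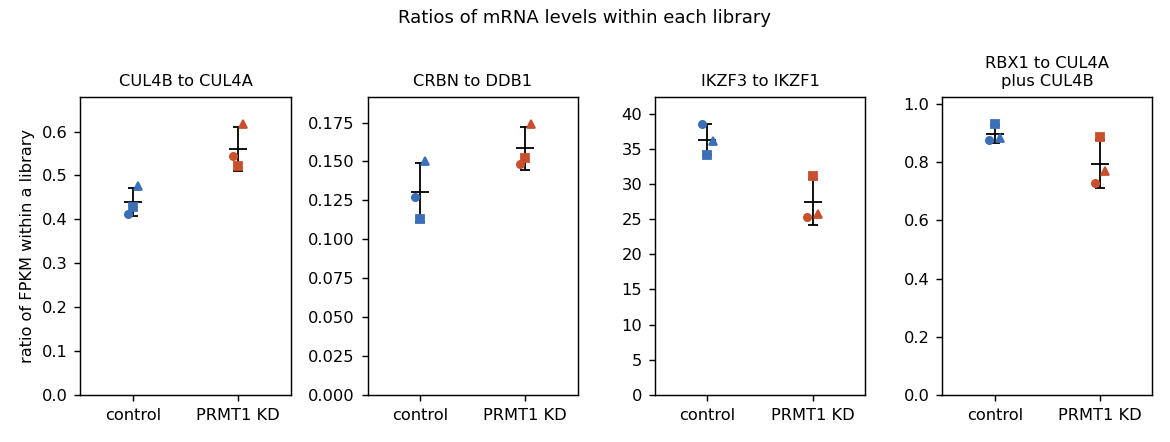
Ratios of FPKM within each library for 4 pairs of member mRNAs, control in blue and PRMT1 KD in orange, with circles, squares and triangles for replicates 1, 2 and 3, a bar for the mean and whiskers for 1 SD. CUL4B to CUL4A is separated upward (0.522 to 0.618 against 0.413 to 0.475) and IKZF3 to IKZF1 downward (25.3 to 31.2 against 34.1 to 38.6), while the other ratios overlap.

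Of the neosubstrates, the Ikaros family factors were represented very unequally. IKZF3 (Aiolos, chr17:39757715-39864188, minus strand) had 19.4, 17.8 and 18.4 FPKM in control and 20.0, 20.2 and 19.7 FPKM in PRMT1 KD. The groups were apart by a narrow gap, and the log2 fold change was 0.10 with a 95% interval of -0.012 to 0.22 (limma adjusted p = 0.303). IKZF1 (Ikaros, chr7:50304068-50405101, plus strand) had 0.503, 0.522 and 0.509 FPKM in control and 0.792, 0.648 and 0.763 FPKM in PRMT1 KD. PRMT1 KD averaged 144% of control for IKZF1 with no overlap, and it rested on 91 to 143 reads per library. In the limma fit without the filter the log2 fold change was 0.20 with a 95% interval of -0.038 to 0.43 (adjusted p = 0.545). Since a pseudocount of 1 exceeds the level itself, the fold change depends on the scale, and it was 0.44 with a pseudocount of 0.1 (limma adjusted p = 0.555) and 0.52 with voom over genes with a mean of at least 10 reads (adjusted p = 0.0534). IKZF1 was thus not called under any of these fits.

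IKZF3 to IKZF1 was 38.6, 34.1 and 36.2 in control and 25.3, 31.2 and 25.8 in PRMT1 KD. The groups did not overlap (log2 difference -0.41 ± 0.11 SE, exact permutation p = 0.1, adjusted 0.2). On log2(FPKM + 1) the difference was smaller, at -0.096 (exact permutation p = 0.2). In each library the IKZF3 mRNA exceeded the IKZF1 mRNA, by 25.3- to 38.6-fold on the deposited lengths, for the same finger sequence in both proteins. The size of this gap depends on the lengths, since that of IKZF1 was 1.73 times its longest coding transcript and that of IKZF3 1.02 times. Per longest coding transcript the control means were 19.0 FPKM for IKZF3 and 0.887 FPKM for IKZF1. The further paralogues were low as well. IKZF2 (Helios) had a control mean of 0.614 FPKM and IKZF4 (Eos) 1.55 FPKM, whereas IKZF5 (Pegasus) had 6.07 FPKM.

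ZFP91, a zinc finger protein degraded with the same drugs, had 22.4, 21.9 and 22.2 FPKM in control and 22.9, 26.4 and 25.0 FPKM in PRMT1 KD. The control libraries were tight, and the PRMT1 KD libraries were all higher. For ZFP91 the log2 fold change was 0.15 with a 95% interval of 0.0091 to 0.29 (limma adjusted p = 0.229). The gene is listed at chr11:58579111-58621042 on the plus strand. The overlapping ZFP91-CNTF readthrough had 0 reads in all 6 libraries.

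CSNK1A1, the casein kinase 1 alpha whose degradation is a known action of lenalidomide, had 16.7, 16.4 and 15.7 FPKM in control and 16.4, 16.0 and 16.3 FPKM in PRMT1 KD. The values overlapped throughout, and PRMT1 KD averaged 99.7% of control. Its log2 fold change was -0.0043 with a 95% interval of -0.11 to 0.10 (limma adjusted p = 0.971). The gene lies at chr5:149492197-149551552 on the minus strand. Its pseudogenes CSNK1A1P1 and CSNK1A1P3 had at most 6 reads in any library, and the overlapping transcript AC021078.1 on the same strand had 186 to 280.

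GSPT1 (eRF3a, chr16:11868128-11916082, minus strand), which is degraded with a newer group of cereblon ligands, had 37.5, 40.1 and 38.5 FPKM in control and 39.3, 42.2 and 44.0 FPKM in PRMT1 KD. The groups overlapped, since PRMT1 KD replicate 1 was below control replicate 2. GSPT1 had a log2 fold change of 0.11 with a 95% interval of -0.021 to 0.24 (limma adjusted p = 0.332), and 0.072 without PRMT1 KD replicate 3. Its paralogue GSPT2 had means of 8.56 and 8.64 FPKM and its partner ETF1 33.8 and 34.0 FPKM in control and PRMT1 KD.

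The ligase is switched on when NEDD8 is attached to its scaffold and switched off by the COP9 signalosome. Of 31 genes for these steps, for exchange of receptors and for ubiquitin transfer, 30 were tested and 1 was called, higher in PRMT1 KD, beside 1.07% of all genes tested called higher. This was UBE2G1, a ubiquitin-conjugating enzyme that extends ubiquitin chains on cereblon neosubstrates. It had 26.7, 24.8 and 25.5 FPKM in control and 30.6, 31.1 and 30.8 FPKM in PRMT1 KD, with a gap between the groups, and a log2 change of 0.26 (95% interval 0.15 to 0.36, limma adjusted p = 0.0460). UBE2G1 was no longer called when any of the 6 libraries was left out (adjusted p 0.0837 to 0.163), so the call is near the threshold. The highest fold change of the list was that of COPS2 (0.34, limma adjusted p = 0.123) and the lowest that of COPS9 (-0.33, limma adjusted p = 0.0605), both subunits of the COP9 signalosome. With voom 4 genes of the list were called, beside 6.82% of all genes tested. COPS2 (voom adjusted p = 0.0179) and COPS9 (voom adjusted p = 0.0328) were among them. The list median was -0.013 beside 0.0095 over all genes tested, and 5 of its genes were separated with PRMT1 KD higher and 6 with it lower (36.7% together, beside 25.9% of all genes tested). At an unadjusted limma p under 0.05 the list had 6 genes higher and 4 lower (33.3% together, beside 19.5% of all genes tested). Genes on both sides, chosen here after their values were seen, are given next. NEDD8 itself had means of 9.72 and 8.14 FPKM in control and PRMT1 KD (log2 fold change -0.23, limma adjusted p = 0.0916), and DDA1, a small subunit bound to DDB1, 8.77 and 7.17 FPKM (-0.26, limma adjusted p = 0.0755). NAE1, a subunit of the enzyme that activates NEDD8, had 14.6 and 16.9 FPKM (0.20, limma adjusted p = 0.172), and CAND1, which exchanges receptors on the scaffolds, had a control mean of 9.59 FPKM (0.18, limma adjusted p = 0.131).

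CRBN shares DDB1 with many other receptors. Of 25 such receptors 24 were tested and 1, DTL, which directs the destruction of replication licensing proteins, was called, beside 2.05% of all genes tested. It had 17.7, 17.7 and 17.0 FPKM in control and 20.8, 21.6 and 22.1 FPKM in PRMT1 KD, a clear separation with a log2 change of 0.28 (95% interval 0.17 to 0.39, limma adjusted p = 0.0402). Without any 1 library its adjusted p was 0.0784 to 0.165. The lowest receptor was DCAF12 (-0.068, limma adjusted p = 0.533, and -0.032 without control replicate 2). The median over the receptors was 0.021, and 29.2% of the receptors tested (7 of 24) were separated between the groups, beside 25.9% of all genes tested. All 7 had PRMT1 KD higher, where 13.6% of all genes tested were separated higher and 12.3% lower. Among protein-coding genes, 61.9% in the shortest of the 5 length bins and 33.9% in the longest had a log2 fold change below 0. The 7 receptors had deposited lengths of 2961 to 8492 bases, and the part of gene length in their values was not tested.

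**Figure D4:**
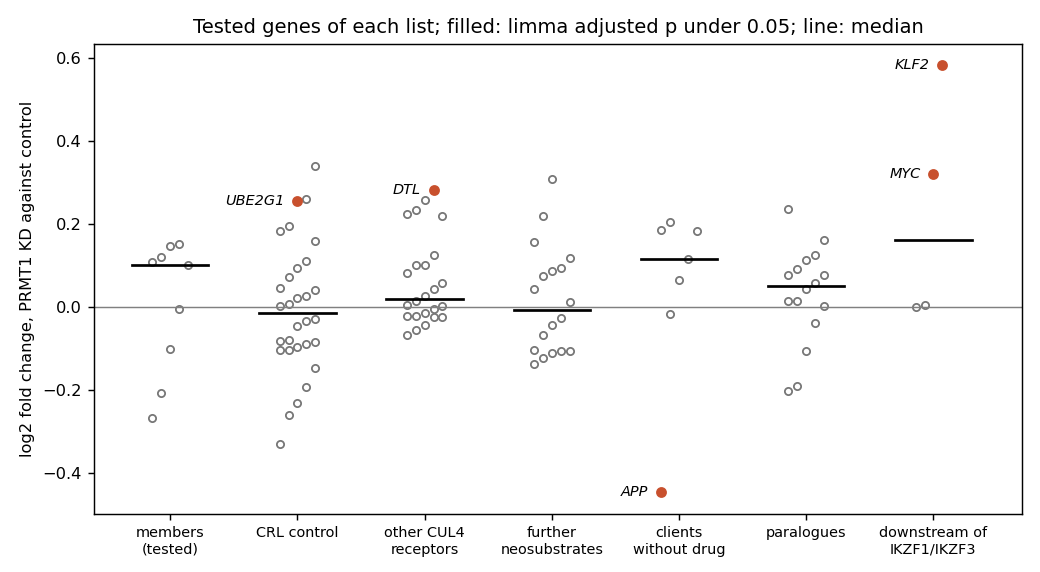
Log2 fold change of PRMT1 KD against control for the tested genes of the member set and of 6 lists around it, each circle a gene, filled and named where the limma adjusted p is under 0.05, with a line at the median. Called genes are UBE2G1, DTL, MYC and KLF2 above 0 and APP at -0.45, and the members lie between -0.27 and 0.15 with none called.

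Further proteins reported as drug-dependent neosubstrates of cereblon made up a list of 23, of which 18 were tested and 0 were called. At an unadjusted limma p under 0.05 there were 2, ARID2 and WEE1, which is 11.1% of the list beside 19.5% of all genes tested. With voom 2 were called as well, where 6.82% of all genes were. Of the list 33.3% were separated between the groups (4 higher and 2 lower), beside 25.9% of all genes tested. ARID2, a subunit of a chromatin remodeller, had 5.82, 5.49 and 5.65 FPKM in control and 7.53, 6.67 and 7.55 FPKM in PRMT1 KD, with no overlap and a log2 change of 0.31 (limma adjusted p = 0.0657, voom adjusted p = 0.0060). RAB28 was lowest at -0.14 (limma adjusted p = 0.543), a value that was -0.039 without PRMT1 KD replicate 2, -0.075 without control replicate 3 and -0.25 without PRMT1 KD replicate 3. The list median was -0.0064. The remaining 5 genes (IKZF2, ZBTB16, SALL4, ZNF98 and TP63) were under the filter, with control means of at most 0.614 FPKM.

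Among 9 proteins reported as substrates or partners of cereblon without a drug, 7 were tested and 1, APP, the amyloid precursor protein, was called, beside 2.05% of all genes tested. APP had 53.8, 54.5 and 52.7 FPKM in control and 38.9, 39.7 and 38.8 FPKM in PRMT1 KD. It fell to 72.9% of control with a wide gap between the groups, a log2 change of -0.45 (95% interval -0.54 to -0.35, limma adjusted p = 0.0095). Its adjusted p was 0.0842 without control replicate 1, 0.0618 without control replicate 2 and 0.0615 without PRMT1 KD replicate 2. PRKAA1, the catalytic AMPK subunit reported to bind cereblon, was highest at 0.21 (limma adjusted p = 0.193). Of the list 3 genes were separated with PRMT1 KD higher and 1 with it lower (57.1% of the 7, beside 25.9% of all genes tested). The potassium channel gene KCNMA1 and the chloride channel gene CLCN1 were under the filter.

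Of 18 paralogues and close partners of the members 16 were tested and 0 were called, beside 3 at an unadjusted limma p under 0.05 (CUL1, RNF7 and CSNK1D) and 1 with voom (CUL1). The 3 are 18.8% of the list, close to the 19.5% of all genes tested, and the voom fit called 6.82% of all genes. The groups were separated in 25.0% of the list, beside 25.9% of all genes tested. CUL1, the scaffold of the SCF ligases, was highest with 52.1, 52.9 and 54.3 FPKM in control and 60.1, 60.2 and 68.2 FPKM in PRMT1 KD (log2 fold change 0.24, limma adjusted p = 0.0968, voom adjusted p = 0.0292). RNF7, the RING protein most like RBX1, was lowest with 12.7, 12.5 and 11.5 FPKM in control and 10.2, 11.1 and 10.2 FPKM in PRMT1 KD (-0.20, limma adjusted p = 0.137). Like RBX1 it had a lower mean in PRMT1 KD, but RNF7 was picked as the lowest of its list. Its deposited length was 3147 bases, and the part of gene length in its values was not tested. Neither RING gene was called by limma over all genes tested.

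Finally, 4 genes were listed as placed downstream of IKZF1 and IKZF3 in myeloma, and 2 of them were called. Both were higher in PRMT1 KD, where 1.07% of all genes tested were called higher. The list holds no direction of response for each gene, and a link of their values to IKZF1 or IKZF3 was not tested. KLF2, a zinc finger factor of plasma cells, rose from 26.0, 26.9 and 24.4 FPKM to 40.8, 38.6 and 37.8 FPKM, a log2 change of 0.58 (95% interval 0.45 to 0.71, limma adjusted p = 0.0121). MYC, a proto-oncogene that drives cell growth, rose from 223, 234 and 212 FPKM to 286, 284 and 267 FPKM, a log2 change of 0.32 (95% interval 0.20 to 0.44, limma adjusted p = 0.0399). In both genes every PRMT1 KD library was above every control library. IRF4, the plasma cell factor that is lost when IKZF1 and IKZF3 are degraded, had 117, 115 and 115 FPKM in control and 115, 118 and 116 FPKM in PRMT1 KD, a log2 fold change of 0.0049 with a 95% interval of -0.081 to 0.091 (limma adjusted p = 0.961). IRF7 was low, with 1.47, 1.20 and 1.17 FPKM in control and 1.59, 1.37 and 0.924 FPKM in PRMT1 KD, and its interval of -0.34 to 0.34 was wide. KLF2 was no longer called without control replicate 1 (adjusted p = 0.0842) or without PRMT1 KD replicate 2 (0.0668), and MYC without any 1 of the 6 libraries (0.0686 to 0.170).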

How the data were processed

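Groups were taken from the labels. FPKM values and gene lengths are as the authors deposited them. Their processing notes name featureCounts 1.5.0-p3 and hg38, and the aligner and the strand setting are not given in the sources used here. FPKM multiplied by gene length and by a divisor worked out for each library gave whole reads in 100% of values above 0 (tolerance 0.01), and the values already held a scaling between libraries. All 58735 gene identifiers and coordinates matched GENCODE release 29.

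For genes whose mean FPKM was 1 or more, log2(FPKM + 1) was tested two-sided in R 4.3.3 with limma 3.58.1, with a trend in the empirical Bayes step, no covariate and Benjamini-Hochberg adjustment. The fit was tested on simulated data. Ratios were compared with exact permutation tests. Genes named are the members, PRMT1, the called genes and both extremes of each of the 6 lists, and the 3 genes most like CRBN, and further list genes (NEDD8, DDA1, NAE1, CAND1, WEE1, CSNK1D, IKZF4, IKZF5, GSPT2, ETF1 and IRF4, with the genes under the filter) were named after their values were seen. Members and lists were chosen with earlier results of these data known. Alternatives covered pseudocount, filter, scaling, trend, test, block, threshold and left-out libraries. The voom test weights log counts by their precision. The m6A data of the study were not used here.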

Additional observations from a re-analysis of the deposited data

How the results depend on the processing

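Settings that change only the filter, the trend, the replicate block or the threshold leave the fold change itself as it was (for example -0.2067 for CUL4A). Under them its direction was kept by construction, and only its side of the threshold could move. Of 165 alternative values of the member fold changes, these settings included, 153 kept their direction and their side of the threshold. A further 8 passed the threshold (CUL4A, RBX1 and ZFP91) and 4 changed sign. All 4 were of CSNK1A1, whose value was 0.015 rescaled to TPM, 0.013 without control replicate 1, 0.0022 without control replicate 2 and 0.0062 without PRMT1 KD replicate 2 (-0.029 to 0.013 over the left-out libraries). IRF7 changed sign in the same way, to 0.018 with quantile normalization, 0.011 rescaled to TPM, 0.058 without control replicate 1 and 0.12 without PRMT1 KD replicate 3 (-0.092 to 0.12 over the left-out libraries). The number of members called was 0, and became 1 with a mean FPKM of at least 5, 2 with voom, 2 with voom over genes with a mean of at least 10 reads and 3 at an unadjusted p. It was 0 to 0 with a library left out.

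Over all genes, 279 were called, against 35 without the filter, 473 with a mean FPKM of at least 5, 180 rescaled to TPM, 43 without the trend, 927 with voom, 918 with voom over genes with a mean of at least 10 reads, 2655 at an unadjusted p and 13 to 94 with a library left out. Of the genes that control the ligase 0 were called without the filter, 2 with a mean FPKM of at least 5, 0 without the trend, 4 with either voom fit, 10 at an unadjusted p and 0 to 0 with a library left out. Of the other receptors 0 were called without the filter, 0 without the trend, 2 with either voom fit, 4 at an unadjusted p and 0 to 0 with a library left out. Of the further neosubstrates 1 was called with a mean FPKM of at least 5, 2 with either voom fit and 2 at an unadjusted p. Of the proteins bound without a drug 3 were called at an unadjusted p and 0 to 1 with a library left out. Of the paralogues 1 was called with either voom fit and 3 at an unadjusted p. Of the genes placed downstream of IKZF1 and IKZF3, 1 was called without the filter, 1 without the trend and 0 to 1 with a library left out. The log2 difference of IKZF3 to IKZF1 was -0.096 on log2(FPKM + 1). With the length of the longest coding transcript, 1 of 10 places in the control order was kept. Fewer libraries or other sets of tested genes explain part of these counts by construction, and for the rest the cause was not tested.

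Deviations of same-numbered libraries correlated by 0.02, 0.063 and 0.101, and others by -0.0751 to 0.0186. Every same-numbered value was thus above every other value, although all were small. The main fit did not pair the libraries by number, and whether the numbers pair them was not tested. Before adjustment, 3496 genes passed the threshold with the replicate block and 2655 without it, while after adjustment fewer passed with the block (204 beside 279). When the fit held the replicate block, 204 genes were called over all genes, 0 members, 2 genes that control the ligase (COPS2 and COPS9, with UBE2G1 at an adjusted p of 0.0581) and 0 other receptors. The fits with at least 10 reads, the IKZF1 fits on other settings and the transcript lengths were added after seeing the data. A quasi-likelihood count test on the same reads was not run. IKZF1, with 91 to 143 reads per library, is the member whose level depth limits most.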
